A study of Mus musculus with 9 samples.

Results

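Transforming growth factor beta (TGF-beta) ligands, their receptors and their closest partners were examined in 3 structures of the embryonic mouse kidney. The 10 genes were the ligands Tgfb1, Tgfb2 and Tgfb3, the receptors Tgfbr1, Tgfbr2 and Tgfbr3, the signal transducers Smad2 and Smad3, the latent binding protein Ltbp1, and the target gene Tgfbi. They were chosen by name, and every probe set that the array's annotation paired with exactly 1 of these symbols was taken, whatever its values. That gave 20 of 22626 probe sets that were not controls, for 10 of the 12393 genes with such a probe set.

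Transcript levels came from Affymetrix MOE430A arrays, on which each probe set is a group of short oligonucleotides for a transcript. The structures were the renal vesicle, the first epithelial stage of the nephron, the s-shaped body that follows it, and the collecting duct system, the branching tree that grows from the ureteric bud. All came from wild-type embryos of strain 129 at stage E14.5 (Theiler stage 22), the sex of the embryos was unknown, and each structure had 3 arrays. Structures were recognised by shape and dissected by hand, and the RNA of every sample went through 2 rounds of amplification. A renal vesicle or s-shaped body sample pooled 20 structures, while the labels give 1 as the pool size of a collecting duct sample, so pool size and structure cannot be told apart in the comparisons with the collecting duct. Every group was untreated, and no group lacks or overexpresses a TGF-beta gene.

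TGF-beta ligands are secreted in a latent complex, in which a propeptide and a latent TGF-beta binding protein such as Ltbp1 hold the ligand in the extracellular matrix. Released ligand binds the type II receptor Tgfbr2, which recruits and phosphorylates the type I receptor Tgfbr1. The active receptor phosphorylates Smad2 and Smad3, which enter the nucleus with Smad4, while Tgfbr3 (betaglycan) presents ligand and is needed most for Tgfb2. In the developing kidney the pathway is known for effects on ureteric branching, on stromal cells and on matrix.

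Promoter sequence of the 4 genes with a difference between structures is shown so that the regions in front of them can be compared. RefSeq's promoter table of build GRCm38.p6 held 7 of the 10 genes, and Smad2, Tgfb3 and Tgfbr3 have no entry in it. The 250 bases before the upstream start are printed 5′ to 3′ on the gene's strand. Capitals mark matches on either strand. The motifs searched were the GC box with the letters GGGCGG, the CCAAT box, the SMAD-binding element with the letters CAGACA, and the TATA box with the letters TATAAA. No match overlapped another in the lines printed. Ltbp1 lies at chr17:75005279-75005528 on the plus strand, Tgfbr1 at chr4:47352972-47353221 on the plus strand, Tgfbr2 at chr9:116175364-116175613 on the minus strand, and Tgfbi at chr13:56609336-56609585 on the plus strand.
Ltbp1: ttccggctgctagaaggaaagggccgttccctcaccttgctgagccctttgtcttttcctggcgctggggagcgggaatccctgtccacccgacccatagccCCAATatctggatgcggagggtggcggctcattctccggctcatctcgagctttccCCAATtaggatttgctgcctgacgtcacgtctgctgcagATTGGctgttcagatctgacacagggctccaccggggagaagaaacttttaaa
Tgfbr1: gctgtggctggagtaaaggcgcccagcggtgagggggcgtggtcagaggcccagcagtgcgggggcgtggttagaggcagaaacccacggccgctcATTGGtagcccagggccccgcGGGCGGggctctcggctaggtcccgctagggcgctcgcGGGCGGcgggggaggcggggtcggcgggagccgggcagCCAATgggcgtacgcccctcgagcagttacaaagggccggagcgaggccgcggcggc
Tgfbr2: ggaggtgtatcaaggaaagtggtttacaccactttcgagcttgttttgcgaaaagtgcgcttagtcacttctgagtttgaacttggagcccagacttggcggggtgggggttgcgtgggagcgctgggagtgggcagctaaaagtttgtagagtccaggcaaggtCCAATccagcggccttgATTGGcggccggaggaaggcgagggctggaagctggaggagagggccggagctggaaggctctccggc
Tgfbi: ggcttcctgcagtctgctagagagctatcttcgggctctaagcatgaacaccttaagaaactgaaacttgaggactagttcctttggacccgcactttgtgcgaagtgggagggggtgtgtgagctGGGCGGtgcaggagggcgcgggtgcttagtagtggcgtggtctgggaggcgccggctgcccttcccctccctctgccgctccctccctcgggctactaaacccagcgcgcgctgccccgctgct

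The Ltbp1 window held 3 CCAAT matches, the Tgfbr1 window 2 GC boxes and 2 CCAAT matches, the Tgfbr2 window 2 CCAAT matches and the Tgfbi window 1 GC box. None of the 4 windows held CAGACA or TATAAA. The second start that RefSeq gives for Ltbp1 (chr17:75178531-75178780) had 2 CAGACA matches and no CCAAT match, and the second start of Tgfbr1 (chr4:47385966-47386215) had 1 CAGACA match. The ligand windows differed from each other: that of Tgfb1 had 5 GC boxes and 75.2% G or C, while that of Tgfb2 had 1 CCAAT, 1 CAGACA and 1 TATAAA match and 53.6% G or C. The Smad3 window had 2 GC boxes. Over the 32851 promoters of the table, 32.7% of windows of this length held a GC box, 33.8% a CCAAT match, 17.1% a CAGACA match and 12.4% a TATAAA match. G or C content was 56.8% for Ltbp1, 74.8% for Tgfbr1, 58.4% for Tgfbr2 and 62.4% for Tgfbi, against a median of 52.4%. A match is a description of letters and does not show that a factor binds there.

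The deposited values were linear intensity, and the mean of each array without its top and bottom 2% was 500.2 to 500.3. Array medians were 112.2 to 144.8. Arrays of the same structure correlated at 0.934 to 0.981, arrays of different structures at 0.791 to 0.879. Of the 22626 probe sets, 12588 were above their own array's median in at least 3 arrays and were tested. Early nephron markers were higher in the renal vesicle relative to the collecting duct for 9 of 10 tested, podocyte markers higher in the s-shaped body than in the collecting duct for 7 of 8, and markers of the collecting duct trunk lower in the renal vesicle for 10 of 12. Urothelial markers were lower in the renal vesicle relative to the collecting duct for 5 of 6 tested, and of 6 cap mesenchyme markers 4 were higher and 1 lower. Among all tested genes, renal vesicle against collecting duct had 15.1% higher and 15.3% lower. For s-shaped body against collecting duct, 16.5% were higher. The count of 1 lower cap mesenchyme marker is near the share over all genes. The s-shaped body arrays also carried the highest summed intensity of endothelial, stromal and mural, macrophage and erythroid markers. For 15 endothelial markers the sum was 20130 to 21434 there, against 818 to 1377 in the renal vesicle and 982 to 1367 in the collecting duct. Cap mesenchyme sums were highest in the renal vesicle (3704 to 4054) and urothelial sums in the collecting duct (18986 to 20304). No marker was listed at 0, and the endothelial markers Pecam1 and Tie1 did not pass the filter.

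The ligands gave low signals in all 3 structures. None of their 5 probe sets passed the filter, and only 2 of their 45 values were above the median of the array. Both of those values belonged to a Tgfb2 probe set in the s-shaped body. A low signal on an array can come from little transcript or from a weak probe set, so no ligand can be called absent.

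Tgfb1, the most widely expressed of the ligands, had intensity of 23.9, 66.5 and 66.5 in the renal vesicle, 103, 66.3 and 111 in the s-shaped body, and 27.9, 80.2 and 15.9 in the collecting duct. The groups overlapped, and every value lay between percentile 13.5 and percentile 45.0 of its own array. Tgfb3, which is best known from palate fusion, had 30.2, 42.0 and 78.3 in the renal vesicle, 16.9, 51.0 and 80.6 in the s-shaped body, and 29.3, 18.9 and 23.2 in the collecting duct. The renal vesicle values were all above those of the collecting duct, and the s-shaped body overlapped both.

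Tgfb2, a ligand whose loss is known to cause kidney and heart defects in mice, was measured by 3 probe sets. On 1450923_at the values were 44.5, 59.4 and 64.1 in the renal vesicle, 292, 179 and 91.6 in the s-shaped body, and 94.8, 63.0 and 93.3 in the collecting duct. The s-shaped body values were all above those of the renal vesicle, and the lowest of them lay within the range of the collecting duct. Probe set 1423250_a_at gave 11.1, 25.8 and 39.8 in the renal vesicle, 47.7, 41.8 and 72.8 in the s-shaped body, and 27.1, 6.59 and 11.5 in the collecting duct. The s-shaped body values were all above those of the collecting duct, and on the deposited scale above those of the renal vesicle too. On the normalized log2 scale the s-shaped body and the renal vesicle overlapped (6.07 for s-shaped body replicate 2 and 6.12 for renal vesicle replicate 3). Probe set 1450922_a_at gave 34.9, 22.5 and 19.2 in the renal vesicle, 86.6, 48.4 and 78.6 in the s-shaped body, and 11.6, 54.4 and 23.0 in the collecting duct, where the second array reached the s-shaped body range.

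With the filter left out and all 22626 probe sets tested, Tgfb2 1450923_at was called between s-shaped body and renal vesicle (log2 difference 1.13, SE 0.34, limma with Benjamini-Hochberg adjustment, adjusted p = 0.045). In the same fit 1423250_a_at was called between s-shaped body and collecting duct (0.97, SE 0.27, adjusted p = 0.032), and 1450922_a_at was not (0.88, SE 0.27, adjusted p = 0.054). These are the only ligand calls, and they rest on probe sets that the filter on low values removes.

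**Figure D1:**
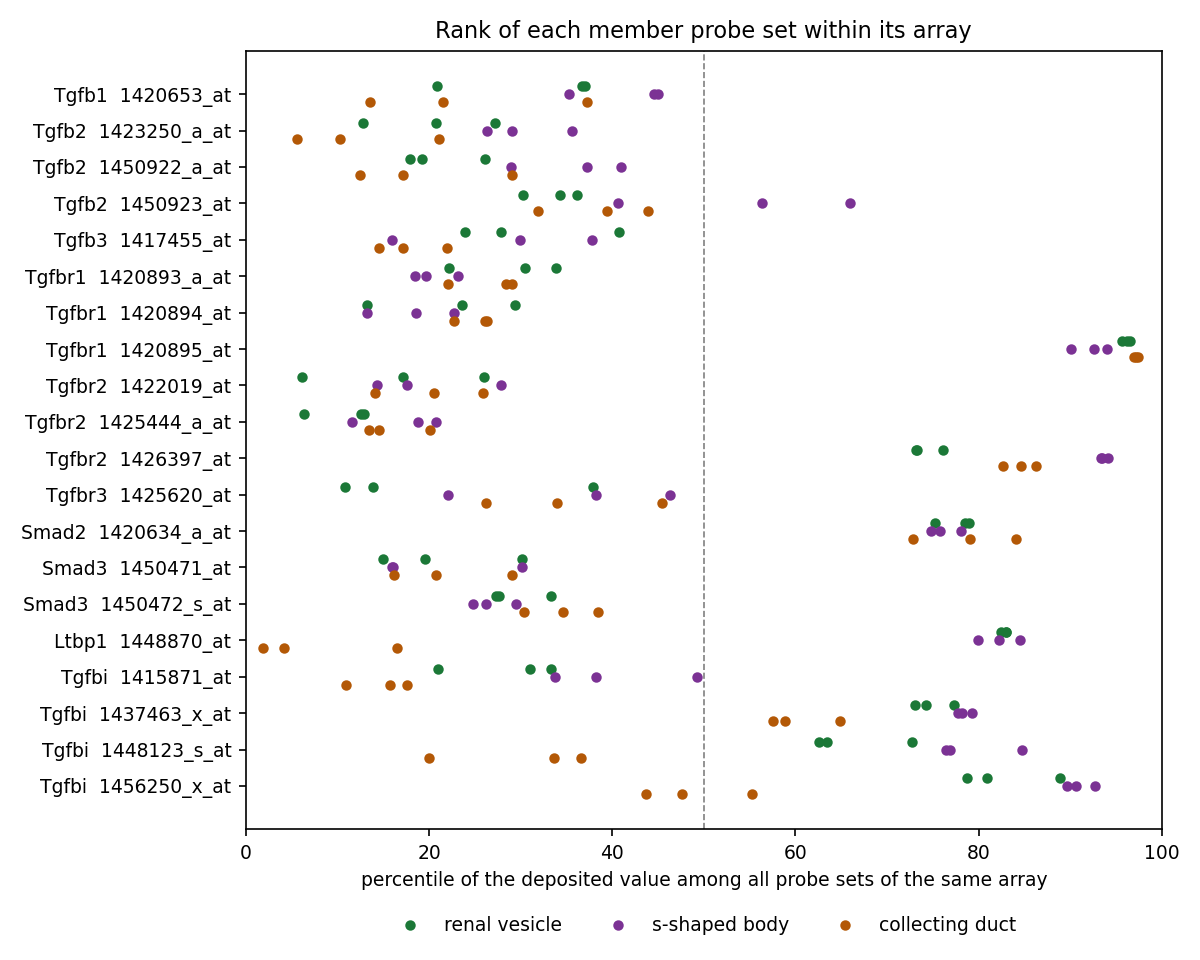
Percentile of each of the 20 probe sets within its own array, from 0 (dimmest) to 100 (brightest), 3 arrays per structure. Of the 13 probe sets that did not pass the filter, all but 2 of 117 values lie under the median of the array, while Tgfbr1 1420895_at lies between 90.1 and 97.4.

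The receptors divided by probe set as well as by structure. Tgfbr1 and Tgfbr2 each had 3 probe sets, of which 1 passed the filter, and these both differed between structures, in opposite ways in the s-shaped body. Tgfbr1 was lowest in the s-shaped body, where Tgfbr2 was highest.

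Tgfbr1, the type I receptor kinase, had values on 1420895_at of 4554, 3922 and 4816 in the renal vesicle, 2755, 1606 and 2164 in the s-shaped body, and 5044, 5609 and 5333 in the collecting duct. The 3 groups did not overlap, with the collecting duct highest and the s-shaped body lowest. Mean log2 intensity was 12.06 ± 0.14 (SD, n = 3), 11.09 ± 0.38 and 12.44 ± 0.07 in that order. The s-shaped body was lower than the collecting duct by a log2 difference of -1.35 (SE 0.18, limma, adjusted p = 0.00013), a 2.55-fold difference, and lower than the renal vesicle by -0.97 (SE 0.18, adjusted p = 0.0017), a 1.95-fold difference. Between renal vesicle and collecting duct the difference of -0.38 did not pass the test (95% interval -0.78 to 0.02, limma, adjusted p = 0.14). The order of these neighbours is therefore not settled.

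Tgfbr2, the type II receptor that binds ligand first, had values on 1426397_at of 411, 511 and 418 in the renal vesicle, 2799, 2485 and 2473 in the s-shaped body, and 1178, 984 and 789 in the collecting duct. No group overlapped another, and every neighbouring pair in the order renal vesicle, collecting duct, s-shaped body differed. Mean log2 intensity was 8.93 ± 0.14 (SD, n = 3) in the renal vesicle, 9.94 ± 0.21 in the collecting duct and 11.37 ± 0.09 in the s-shaped body. The log2 difference was -1.01 (SE 0.17, limma, adjusted p = 0.00089) between renal vesicle and collecting duct, 1.43 (SE 0.17, adjusted p = 4.1e-05) between s-shaped body and collecting duct, and 2.44 (SE 0.17, adjusted p = 1.3e-06) between s-shaped body and renal vesicle. The last is a 5.41-fold difference. In rank within the array the same probe set stood at percentile 73.2 to 76.1 in the renal vesicle, 82.7 to 86.3 in the collecting duct and 93.4 to 94.1 in the s-shaped body.

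Endothelial and stromal cells both make Tgfbr2, and the counts of their called markers are given here. All 13 tested endothelial markers were higher in the s-shaped body than in the renal vesicle. Of 12 tested stromal and mural markers 9 were higher and 1 lower. Over all tested genes 18.2% were higher and 17.3% lower. All 13 endothelial markers were also higher in the s-shaped body than in the collecting duct. Of the 12 stromal and mural markers 11 were higher and 0 lower in that comparison. There the shares over all tested genes were 16.5% higher and 15.2% lower. Against the collecting duct, 2 of the 13 endothelial markers were higher and 2 lower in the renal vesicle. These counts are near the shares over all genes of 15.1% and 15.3%. Of the 12 stromal and mural markers 6 were higher and 1 lower there. The part of these markers in the Tgfbr2 result was not tested. In bulk samples such as these, fewer cells of a type and less RNA per cell cannot be told apart.

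The other receptor probe sets were dim. Tgfbr1 1420893_a_at and 1420894_at and Tgfbr2 1422019_at and 1425444_a_at stayed between percentile 6.15 and percentile 33.9 on all 9 arrays, with intensity from 5.43 to 57.6, and none of the 4 was called with the filter left out. Tgfbr3, the co-receptor betaglycan, had 64.0, 13.1 and 9.32 in the renal vesicle, 29.8, 75.8 and 118 in the s-shaped body, and 38.9, 69.6 and 120 in the collecting duct. Its groups overlapped, and single arrays within each structure differed widely. Probe sets of different design cannot be set against each other, so the dim values are no measure of how much receptor transcript is present.

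**Figure D2:**
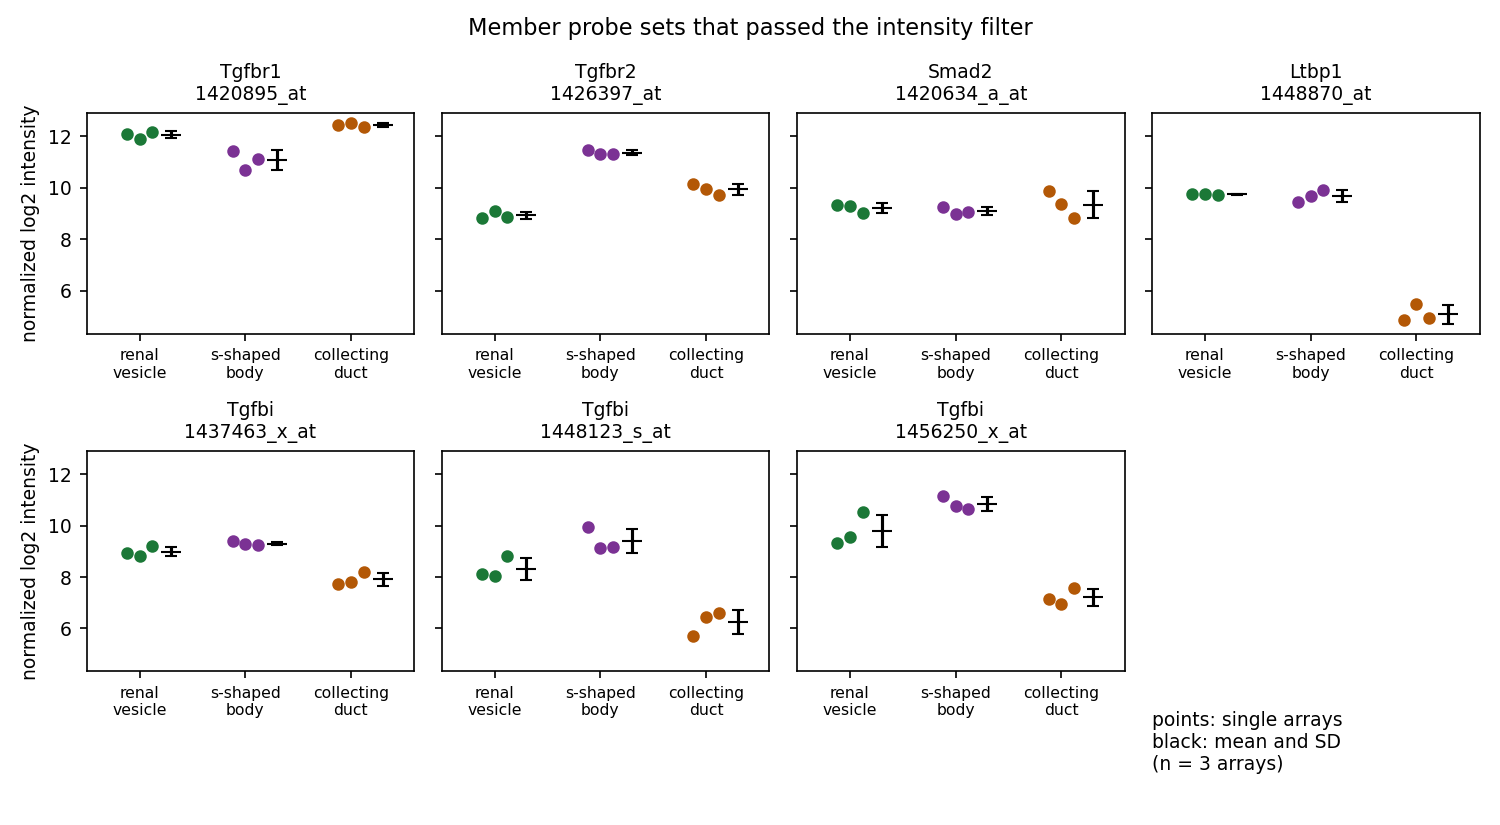
Normalized log2 intensity, with a pseudocount of 26, of the 7 member probe sets that passed the filter on each array (points), with the mean and SD of each structure in black (n = 3). Tgfbr2 1426397_at runs from a mean of 8.93 in the renal vesicle to 11.37 in the s-shaped body, whereas Tgfbr1 1420895_at falls to 11.09 there, and Ltbp1 separates the collecting duct at 5.08 from both nephron structures.

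The receptor-regulated SMADs showed no called difference. Smad2, 1 of the direct substrates of Tgfbr1, had 607, 599.6 and 471 in the renal vesicle, 604, 493 and 523 in the s-shaped body, and 968, 640.4 and 419 in the collecting duct. The collecting duct arrays held both the highest and the lowest of the 9 values. Mean log2 intensity was 9.22 ± 0.19 (SD, n = 3), 9.10 ± 0.15 and 9.35 ± 0.53. The 95% interval of the difference was -0.66 to 0.40 for renal vesicle against collecting duct, -0.78 to 0.28 for s-shaped body against collecting duct, and -0.65 to 0.41 for s-shaped body against renal vesicle, with limma adjusted p = 0.73, 0.50 and 0.75. These intervals leave room for differences of up to 0.78 log2 units, so the data do not show that the levels are alike.

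Smad3, the other substrate, did not pass the filter on either probe set. On 1450472_s_at the values were 38.4, 41.0 and 55.9 in the renal vesicle, 48.8, 41.7 and 41.2 in the s-shaped body, and 49.8, 71.6 and 90.1 in the collecting duct. The highest values were those of the collecting duct, and its lowest array lay within the range of the renal vesicle. On 1450471_at the values were 43.9, 14.7 and 22.2, then 16.9, 18.8 and 55.3, then 17.2, 54.7 and 32.0 in the same order of structures, with full overlap.

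Ltbp1 had the largest difference among the 7 probe sets that passed. This protein carries the small latent complex to the matrix. Its probe set 1448870_at gave 819.5, 814 and 784 in the renal vesicle, 689, 819 and 953 in the s-shaped body, and 2.39, 23.4 and 5.16 in the collecting duct. Both nephron structures lay far above the collecting duct, where the probe set stood at percentile 1.82 to 16.5 of the array, against 82.5 to 83.0 in the renal vesicle and 79.9 to 84.5 in the s-shaped body. Mean log2 intensity was 9.74 ± 0.03 (SD, n = 3), 9.68 ± 0.24 and 5.08 ± 0.36. The log2 difference was 4.66 (SE 0.21, limma, adjusted p = 2.7e-08) for renal vesicle against collecting duct and 4.60 (SE 0.21, adjusted p = 1.8e-08) for s-shaped body against collecting duct. These correspond to 25.2-fold and 24.2-fold on a scale with a pseudocount of 26.

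The size of that difference depends on the pseudocount, because the collecting duct values are near the bottom of the scale. It was 5.60 and 5.54 with a pseudocount of 10, and 3.10 and 3.05 with a pseudocount of 100, and it passed the test each time. Between s-shaped body and renal vesicle Ltbp1 did not differ beyond its spread (-0.06, 95% interval -0.51 to 0.39, limma, adjusted p = 0.86). Stromal cells also make Ltbp1. The summed stromal and mural markers were 2017 to 3282 in the renal vesicle and 1544 to 1814 in the collecting duct. Of the 12 tested, 6 were higher and 1 lower in the renal vesicle. Over all tested genes 15.1% were higher and 15.3% lower. The part of the stromal and mural markers in the Ltbp1 difference was not tested.

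Tgfbi, a secreted matrix protein named for its induction by TGF-beta, was higher in both nephron structures than in the collecting duct on all 3 probe sets that passed. The probe sets differed in the size of the difference but not in its direction. All 3 carry a suffix (s or x) that marks probes which may also match similar transcripts.

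On Tgfbi 1456250_x_at the values were 598, 705 and 1413 in the renal vesicle, 2258, 1699 and 1524 in the s-shaped body, and 111, 105 and 181 in the collecting duct. The s-shaped body was highest on every array, the collecting duct lowest, and the third renal vesicle array came close to the s-shaped body. The log2 difference from the collecting duct was 2.57 (SE 0.29, limma, adjusted p = 5e-05) for the renal vesicle and 3.62 (SE 0.29, adjusted p = 1.6e-06) for the s-shaped body, a 5.94-fold and a 12.3-fold difference.

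Tgfbi 1448123_s_at gave 229, 226 and 404 in the renal vesicle, 967, 546 and 562 in the s-shaped body, and 24.6, 68.3 and 83.1 in the collecting duct. The groups did not overlap and had the same order as on 1456250_x_at. The log2 difference from the collecting duct was 2.07 (SE 0.30, limma, adjusted p = 0.00035) for the renal vesicle and 3.16 (SE 0.30, adjusted p = 7e-06) for the s-shaped body. On Tgfbi 1437463_x_at, where the values were 442, 417 and 542, then 658, 611 and 594, then 184, 204 and 276, the differences were smaller, at 1.08 (SE 0.18, adjusted p = 0.00097) and 1.39 (SE 0.18, adjusted p = 9.5e-05). The order was the same again, without overlap.

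Whether Tgfbi differs between the nephron structures is less settled. The s-shaped body was above the renal vesicle by 1.06 on 1456250_x_at (95% interval 0.42 to 1.69, limma, adjusted p = 0.015) and by 1.09 on 1448123_s_at (0.43 to 1.76, adjusted p = 0.016), but 1437463_x_at did not pass (0.32, interval -0.08 to 0.72, adjusted p = 0.21). Both calls are lost when 1 array is left out, without renal vesicle replicate 1 (adjusted p = 0.073 and 0.064), without renal vesicle replicate 2 (0.066 and 0.067) or without s-shaped body replicate 1 (0.066 and 0.076). The fourth probe set, 1415871_at, did not pass the filter and had 46.2, 56.8 and 25.4 in the renal vesicle, 127, 75.6 and 66.2 in the s-shaped body, and 9.75, 25.7 and 20.0 in the collecting duct. Its s-shaped body values were again the highest. With the filter left out it was called between s-shaped body and collecting duct (1.39, SE 0.26, adjusted p = 0.0037).

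Stromal, endothelial and macrophage cells are known to make Tgfbi, and their markers were highest in the s-shaped body too. Summed stromal and mural markers were 25669 to 33158 there, and summed macrophage markers 3472 to 4217 against 533 to 914 in the renal vesicle and 950 to 1143 in the collecting duct. Only 3 of the 11 macrophage markers passed the filter. Of these, 2 were higher in the s-shaped body than in the collecting duct and 3 were higher than in the renal vesicle. All 13 tested endothelial markers were higher in the s-shaped body in both comparisons. Of 12 stromal and mural markers 11 were higher and 0 lower than in the collecting duct. Against the renal vesicle 9 were higher and 1 lower. Over all tested genes the shares higher were 16.5% and 18.2%, and the shares lower 15.2% and 17.3%. Between renal vesicle and collecting duct 0 of the 3 macrophage markers were called in either direction. Of 12 stromal and mural markers 6 were higher in the renal vesicle and 1 lower. Of 13 endothelial markers 2 were higher and 2 lower. Over all tested genes these shares were 15.1% and 15.3%. Summed erythroid markers were 21315 to 23983 in the s-shaped body, against 698 to 3074 in the renal vesicle. The part of these markers in the Tgfbi result was not tested.

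**Figure D3:**
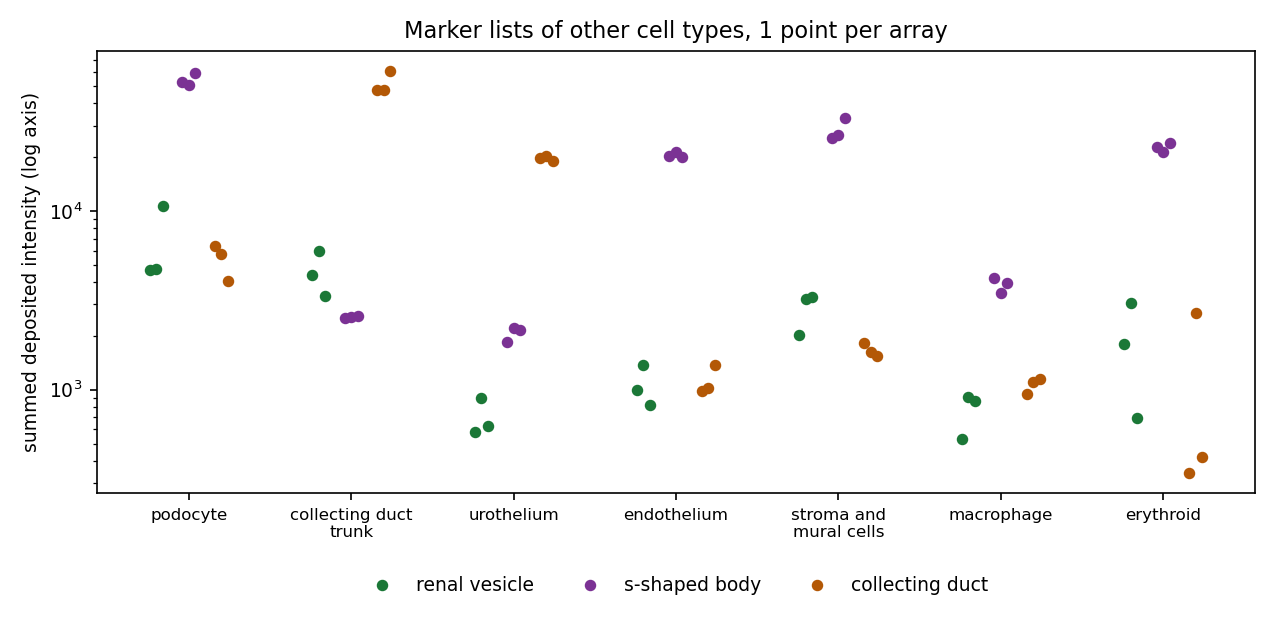
Summed deposited intensity of 7 lists of cell type markers on each array, 3 arrays per structure, on a log axis. Endothelial, stromal and macrophage sums are highest in the s-shaped body, and the podocyte sum of the third renal vesicle array (10632) is above those of the other renal vesicle arrays (4673 and 4763).

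Counted together, 7 of the 20 probe sets passed the filter, for the 5 genes Tgfbr1, Tgfbr2, Smad2, Ltbp1 and Tgfbi. The remaining 13 did not pass, and Tgfb1, Tgfb2, Tgfb3, Tgfbr3 and Smad3 had no passing probe set. Between renal vesicle and collecting duct 5 of 7 were called, 4 higher and 1 lower, where 28.4% of all tested probe sets were called. Between s-shaped body and collecting duct 6 of 7 were called, 5 higher and 1 lower, against 28.6%, and between s-shaped body and renal vesicle 4 of 7, 3 higher and 1 lower, against 33.6%. An F test over the 3 structures called 6 of 7, all but Smad2, against 45.4%. Of the 7, 3 are probe sets of Tgfbi, so these are not 7 separate genes, and a probe set can pass the filter through the structure in which it is high. The comparisons with the collecting duct share its 3 arrays.

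The median log2 difference of the 7 probe sets was 1.08 for renal vesicle against collecting duct, 1.43 for s-shaped body against collecting duct and 0.32 for s-shaped body against renal vesicle. Over all tested probe sets these medians were 0.03, -0.04 and -0.06. The medians 1.08 and 0.32 are the values of Tgfbi 1437463_x_at, 1 of 3 Tgfbi probe sets among the 7. By the brightest probe set of Tgfbr1, Tgfbr2, Smad2, Ltbp1 and Tgfbi, renal vesicle minus collecting duct gave -0.38, -1.01, -0.13, 4.66 and 2.57. In the same order of genes, s-shaped body minus collecting duct gave -1.35, 1.43, -0.25, 4.60 and 3.62. S-shaped body minus renal vesicle gave -0.97, 2.44, -0.12, -0.06 and 1.06. With the filter left out, 5, 8 and 5 of the 20 probe sets were called in the same order of comparisons, and 0, 2 and 1 of the 13 dim ones, while 15.3%, 16.6% and 18.6% of all 22626 were.

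**Figure D4:**
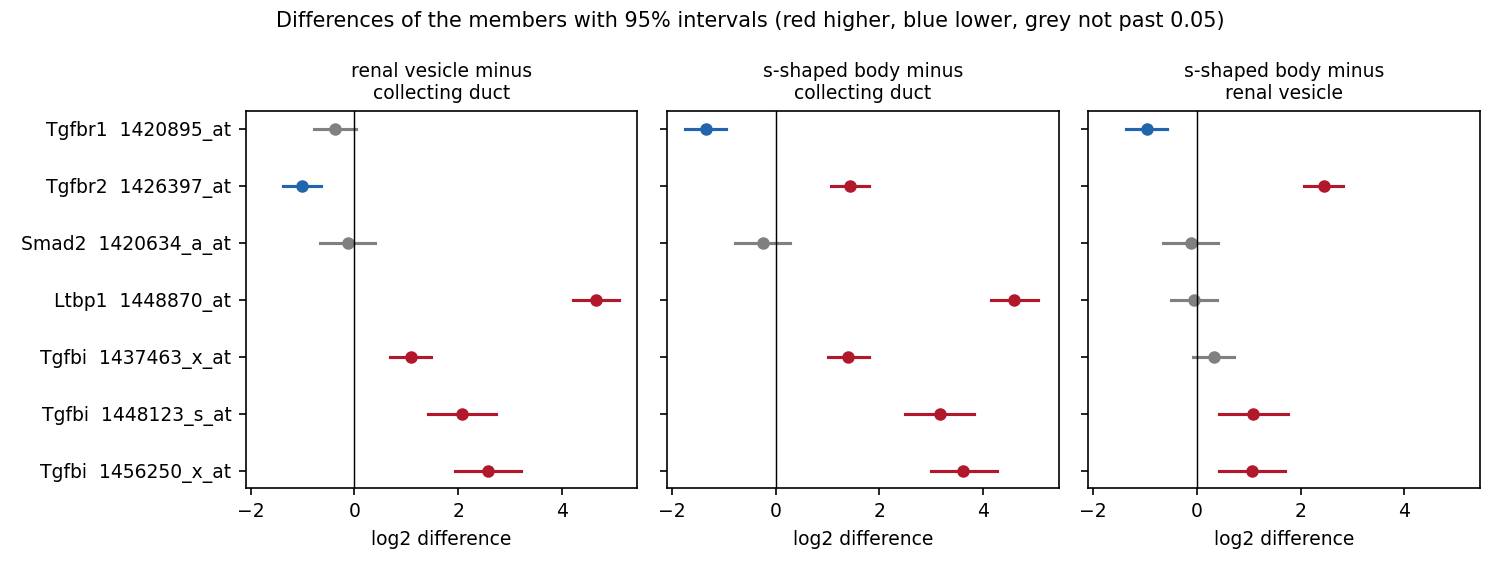
Log2 difference of the 7 member probe sets that passed the filter in each comparison, with 95% intervals from limma, 3 arrays per structure. Ltbp1 stands at 4.66 and 4.60 against the collecting duct and at -0.06 between the nephron structures, and the intervals of Smad2 cross 0 in each comparison.

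Each gene with a difference was also set beside the 7997 other tested genes, and those with the highest Pearson correlation of log2 intensity over the 9 arrays were named. Blnk (0.972), Hunk (0.964) and Mpzl2 (0.956) were nearest to Tgfbr1. Elk3 (0.995), Ets2 (0.988) and Cr1l (0.988) were nearest to Tgfbr2. Nr2f1 (0.997), Fbn2 (0.993) and Hoxa9 (0.991) were nearest to Ltbp1, and Plat (0.990), Dennd5a (0.989) and Wipf1 (0.987) to Tgfbi. The 9 points share 3 structures, so a correlation mainly repeats the order of the structure means. Elk3 and Ets2 encode ETS-family transcription factors, and the means of Elk3 in the renal vesicle, collecting duct and s-shaped body were 8.25, 9.36 and 10.84, the order of Tgfbr2. Nr2f1, a nuclear receptor, and Hoxa9, a homeobox factor, had means of 10.99 and 12.93 in the renal vesicle and 5.52 and 6.24 in the collecting duct.

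Genes that store, release or restrain the ligands were mostly higher in the s-shaped body. Of 15 tested genes of the latent complex and its activation, 13 were higher in the s-shaped body and 0 lower than in the collecting duct, where 16.5% of all tested genes were higher and 15.2% lower. Against the renal vesicle 10 were higher in the s-shaped body and 0 lower (18.2% and 17.3% of all genes), and in the renal vesicle 6 were higher and 2 lower than in the collecting duct (15.1% and 15.3%). The medians were 1.84, 1.05 and 0.22 in that order, against -0.03, -0.03 and 0.01 over all genes.

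Fbn2 (fibrillin-2, a microfibril protein of the family to which latent binding proteins attach) had the shape of Ltbp1, with log2 differences from the collecting duct of 4.10 (SE 0.20) in the renal vesicle and 3.75 (SE 0.20) in the s-shaped body, and -0.35 between the nephron structures (limma, adjusted p = 0.20). Mmp2, a matrix protease, was higher by 4.45 and 4.11 and likewise not called between them (-0.34, limma, adjusted p = 0.28). Plat, the tissue plasminogen activator, was higher by 4.17 in the renal vesicle and 6.31 in the s-shaped body, and differed between them by 2.15. Emilin1, a matrix protein that limits release of the ligand from its precursor, was higher by 1.81 and 3.44, and Bgn (biglycan) by 1.11 and 2.93. Nrros, a myeloid anchor of latent TGF-beta, was called in the s-shaped body (2.56) and not in the renal vesicle (0.12, limma, adjusted p = 0.69).

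The other latent binding proteins Ltbp3 and Ltbp4 had smaller differences from the collecting duct than Ltbp1. Ltbp3 was higher in the s-shaped body than in the collecting duct (1.77, SE 0.25, limma, adjusted p = 0.0002) and than in the renal vesicle (1.14, adjusted p = 0.0047), with 0.63 and an adjusted p of 0.085 between renal vesicle and collecting duct. Ltbp4 was lower in the renal vesicle relative to the collecting duct (-0.90, SE 0.30, limma, adjusted p = 0.045), a call lost without renal vesicle replicate 1 or 2, without any s-shaped body array or without collecting duct replicate 2 (adjusted p = 0.05 to 0.18). It is also lost with no filter (0.091) or with only the arrays compared in the fit (0.08). Ltbp2 did not pass the filter.

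Receptor and SMAD partners were called in both directions. Of 22 tested, 1 was higher and 5 lower in the renal vesicle relative to the collecting duct, while the s-shaped body had 5 higher and 6 lower than the collecting duct, and 7 higher and 3 lower than the renal vesicle, with medians of -0.15, 0.03 and 0.10. Over all tested genes the shares higher and lower were 15.1% and 15.3%, 16.5% and 15.2%, and 18.2% and 17.3% in the same order, so several of these counts were near the share over all genes. Skil (SnoN), a SMAD repressor, was lower in both nephron structures, at -1.41 and -1.29 (SE 0.15 each). Tgif1, another repressor, was lower in the s-shaped body than in the collecting duct (-1.60) and the renal vesicle (-1.64). Smad7, the inhibitory SMAD that targets Tgfbr1 for degradation, was lower in the s-shaped body than in the collecting duct (-1.21, SE 0.26, limma, adjusted p = 0.0042) and the renal vesicle (-0.92, adjusted p = 0.018); the second call is lost without renal vesicle replicate 1 (0.078) or s-shaped body replicate 2 (0.064).

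Dab2, an endocytic adaptor that binds the receptors, was higher in the s-shaped body than in the collecting duct (2.72) and the renal vesicle (1.85). In the renal vesicle it was higher than in the collecting duct (0.87, limma, adjusted p = 0.018), which is lost without renal vesicle replicate 3 (0.055) or collecting duct replicate 2 (0.062). Eng (endoglin), the endothelial co-receptor, was higher in the s-shaped body by 1.12 and 1.31 against collecting duct and renal vesicle. Fkbp1a, which binds and restrains type I receptors, and Cited2, a transcriptional co-regulator, were higher in the s-shaped body than in the renal vesicle by 0.69 and 0.83, and than in the collecting duct by 0.44 and 0.76. The Fkbp1a call of 0.44 is lost with no further normalization (limma, adjusted p = 0.065) or no intensity trend (0.057). Smad4, the common partner, was not called in any comparison (0.19, -0.21 and -0.40; limma, adjusted p = 0.38, 0.35 and 0.063). Smad6 was lower in the renal vesicle relative to the collecting duct (-0.60, limma, adjusted p = 0.035), lost without renal vesicle replicate 1 or 2, s-shaped body replicate 2, or collecting duct replicate 2 or 3 (0.051 to 0.11), with no filter (0.066) or with only the arrays compared (0.072). Acvrl1 did not pass the filter.

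The activin and nodal branch, which uses Smad2 and Smad3 through other receptors, had 7 tested genes. Of these 1 was higher and 3 lower in the renal vesicle relative to the collecting duct, while the s-shaped body had 1 higher and 1 lower than the collecting duct, and 1 higher and 0 lower than the renal vesicle, with medians of -0.55, -0.48 and 0.07. With 7 genes and 15.1% to 18.2% of all genes called in a direction, a count of 1 is near the share over all genes. Nodal itself was higher in the s-shaped body, by 1.77 (SE 0.20) and 1.79. Acvr2a, an activin type II receptor, was lower in both nephron structures, at -1.32 and -1.08 (SE 0.16). In the renal vesicle Acvr1b was lower (-0.77), Inha lower (-0.55) and Acvr2b higher (1.24) than in the collecting duct. Those calls are lost without renal vesicle replicate 1 for Acvr1b (0.052) and replicate 2 for Acvr2b (0.05), and for Inha without renal vesicle replicate 1 or 2, any s-shaped body array, or collecting duct replicate 1 or 3 (0.052 to 0.14), with no filter (0.077) or with only the arrays compared (0.077).

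Of 23 tested genes known to respond to TGF-beta, 16 were higher in the s-shaped body and 5 lower than in the collecting duct, 17 higher and 2 lower than in the renal vesicle, and 8 were higher and 9 lower in the renal vesicle relative to the collecting duct. Over all tested genes the shares higher and lower were 16.5% and 15.2%, 18.2% and 17.3%, and 15.1% and 15.3% in that order. The list medians were 1.59, 1.57 and 0.42. Col1a2 (a collagen I chain), Vim (vimentin), Zeb1 (a transcription factor of mesenchymal cells) and Acta2 (smooth muscle actin) were higher in the s-shaped body than in the collecting duct by 6.17, 4.75, 5.39 and 3.93, and Col4a1 (a basement membrane collagen) by 3.10. In the renal vesicle the same genes were higher by 1.55, 2.29, 2.54, 0.93 and 2.19. Of the genes on this list, 6 are also on the list of stromal and mural markers: Col1a1, Col1a2, Col3a1, Tagln, Acta2 and Twist1.

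The matricellular genes Ccn1 and Ccn2, which are also induced by other signals, were lower in the renal vesicle relative to the collecting duct. Ccn1 was lower in both nephron structures than in the collecting duct, at -2.14 and -2.94 (SE 0.21), and lower in the s-shaped body than in the renal vesicle (-0.80, limma, adjusted p = 0.011), a call lost without renal vesicle replicate 1 (0.057) or s-shaped body replicate 2 (0.052). Ccn2 was lower in the renal vesicle relative to the collecting duct (-1.41, SE 0.34) and higher in the s-shaped body than in the renal vesicle (2.53). Its difference of 1.13 between s-shaped body and collecting duct (limma, adjusted p = 0.027) is lost without any s-shaped body array or without collecting duct replicate 1 or 2 (0.053 to 0.096), and with no filter (0.053).

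**Figure D5:**
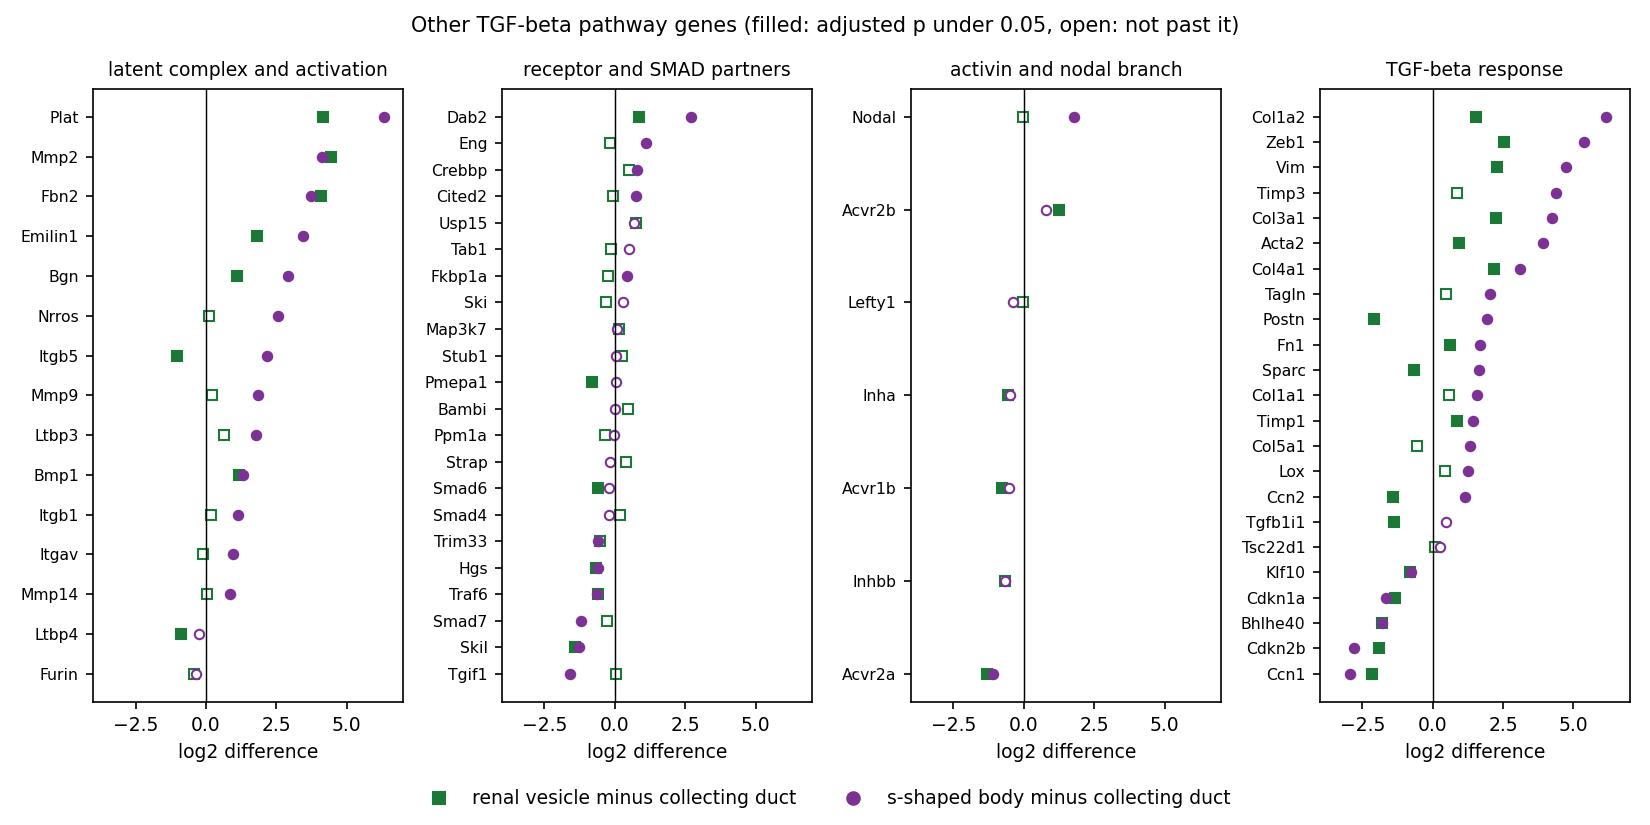
Log2 difference from the collecting duct of the tested genes of the 4 pathway lists, with squares for the renal vesicle and circles for the s-shaped body, filled where the adjusted p is under 0.05. Plat reaches 6.31 and Col1a2 6.17 in the s-shaped body, while receptor and SMAD partners lie on both sides of 0, from Tgif1 at -1.60 to Dab2 at 2.72.

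The third renal vesicle array had a podocyte marker sum above those of the other renal vesicle arrays, and the second collecting duct array had an erythroid sum of 2699 within a collecting duct range of 342 to 2699. With both arrays left out, the latent complex list had 5 higher and 1 lower of 15 between renal vesicle and collecting duct, 12 and 0 between s-shaped body and collecting duct, and 9 and 0 between s-shaped body and renal vesicle. The response list then had 6 higher and 4 lower of 21, 15 and 2, and 16 and 1. Receptor and SMAD partners had 0 higher and 1 lower of 22, 4 and 3, and 6 and 3, and the activin and nodal branch 1 and 2 of 6, 1 and 1, and 1 and 0. Between renal vesicle and collecting duct the lower calls of the receptor list went from 5 to 1 and those of the response list from 9 of 23 to 4 of 21. The calls over all probe sets in that comparison went from 3570 to 1971. Shares higher and lower over all tested genes were not worked out for this fit. The list counts without these arrays therefore have no background beside them. The filter was applied anew, and Cdkn2b and Bhlhe40 no longer passed it. With all arrays both were called lower in each nephron structure than in the collecting duct. Both structures that lost an array also had fewer arrays in this fit. The numbers of member probe sets called were again 5, 6 and 4, with several for Tgfbi and no share over all probe sets beside them. Of the genes named, Col1a2 (1.12, limma, adjusted p = 0.061), Dab2 (0.14), Ltbp4 (0.12), Smad6 (0.051) and Inha (0.052) lost their calls between renal vesicle and collecting duct, and Ccn2 (0.076) lost its call between s-shaped body and collecting duct.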

How the data were processed

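The deposited values are linear intensity. They were made with GCOS (Affymetrix software), per the submitters' processing notes, and its version and algorithm are not given in the sources used here, and no detection calls were used. Probe sets were named through the platform annotation of 2016, and 64 controls were left out. The identifiers of all 20 member probe sets matched RefSeq's gene table.

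A pseudocount of 26 (the 20th percentile) was added, log2 values were quantile normalized, and probe sets above their own array's median in at least 3 arrays were tested. Differences were fitted with limma 3.58.1 in R 4.3.3 on all 9 arrays (lmFit, eBayes with an intensity trend, 6 residual degrees of freedom, two-sided), without covariates. P-values were adjusted over all tested probe sets (Benjamini-Hochberg), and an adjusted p under 0.05 is a call. The pseudocount understates the differences of dim genes. The fit was tested on simulated data.

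Every member probe set is reported. A gene of another list is represented by its brightest probe set, and the pathway genes named are up to 6 per list with the smallest F-test p plus 10 set by name. The members and lists were chosen with earlier results of these data known. Per the labels a replicate is a single minimally pooled sample, and nothing states that samples came from separate litters, so p-values measure the spread between these samples. The number of arrays limits the precision. Alternatives covered the pseudocount, scaling, filter, probe set choice, trend, weights, arrays fitted, block, minimum fold and each array left out.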

Additional observations from a re-analysis of the deposited data

How the results depend on the processing

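Of the member values under all alternatives, 443 of 456 kept their direction and their side of the threshold, 7 lost the call, 2 gained it and 4 turned sign. For the pathway genes named, 1274 of 1333 kept both, 59 lost the call and 0 turned. Those that turned were never called: Smad2 without collecting duct replicate 1 (0.13 for renal vesicle and 0.01 for s-shaped body against collecting duct), and Ltbp1 for s-shaped body against renal vesicle with no further normalization (0.01) or without s-shaped body replicate 1 (0.06). Leaving out each array in turn, these differences ran from -0.40 to 0.13, from -0.52 to 0.01 and from -0.18 to 0.06. The cause was not tested. With array weights, whose fit stopped before converging and gave collecting duct replicate 2 a weight of 16.5 against 0.213 to 2.24 for the others, Tgfbr1 was called between renal vesicle and collecting duct (-0.53, limma, adjusted p = 0.0019). Tgfbi 1437463_x_at was then called between the nephron structures (0.40, adjusted p = 0.03). A 2-fold minimum removed the Tgfbr1 call of -0.97.

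Over all probe sets, array weights called 7516 for renal vesicle against collecting duct, 6878 for s-shaped body against collecting duct and 9549 by the F test, where the reported fit called 3570, 3601 and 5721. A 2-fold minimum left 1695, 1997 and 2024 in the 3 comparisons, the last against 4233. Leaving out renal vesicle replicate 3 and collecting duct replicate 2 jointly, chosen after seeing the data, left 1971 for renal vesicle against collecting duct. With 1 probe set per gene, 3 member probe sets of 5 were called there, since Tgfbi then counts once. In the reported fit, 15.1% of all genes by their brightest probe set were higher and 15.3% lower in that comparison. Leaving out each array in turn gave 2496 to 3557, 2492 to 3711, 2992 to 5012 and 4495 to 6218 calls for the 3 comparisons and the F test. Member calls were 5 to 5, 6 to 6, 2 to 4 and 6 to 6, with 2 for s-shaped body against renal vesicle without renal vesicle replicate 1 or 2 or s-shaped body replicate 1. Deviations of same-numbered samples correlated at -0.06 to 0.16 over 9 pairs, 3 above 0.1, and at 0.1 to 0.12 for replicate 3. Differently numbered samples were not compared with them, so whether replicate numbers pair the samples is not settled. The replicate block gave 3674, 3619 and 4339 calls and the same member counts of 5, 6 and 4. Of the calls between renal vesicle and collecting duct, 52.3% were higher in the renal vesicle, 62.6% with median centring and 45.8% with no further normalization, where the median of all probe sets was 0.03, 0.12 and -0.04. Signals near the bottom of an array, as for the ligands and for Ltbp1 in the collecting duct, limit what can be read from them.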
